A study of Mus musculus with 7 samples.

Results

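The genes described here are the 6 of tetrahydrobiopterin (BH4) synthesis and recycling, Gch1, Gchfr, Pts, Spr, Qdpr and Pcbd1, out of 55487 genes in the count table. They were taken by symbol, and all 6 matched 1 Ensembl gene each in the GENCODE annotation of GRCm38. Spr was chosen by its counts in these same libraries, where it was lower with valproic acid (VPA) in every replicate, so its values are a description and carry no test. The other members were added for their place in the pathway. RNA came from precision-cut liver slices (PCLS) of healthy male Balb/c mice, thin discs of liver kept in Williams' Medium E. Slices were collected on day 3 of culture, 3 libraries without VPA (CTR) and 4 libraries with 2.5 mM VPA sodium salt, an inhibitor of class I histone deacetylases. The question was how VPA in the medium changes the RNA of the cultured slice. A slice holds all the cells of the liver, so fewer cells of a type and less RNA per cell cannot be told apart. The libraries of a group carry different slice culture numbers, and the study's methods count each liver as a separate repeat, but the labels do not tie a library to a mouse, so p-values measure the spread between these libraries.

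BH4 is a cofactor made from GTP. GTP cyclohydrolase 1, the product of Gch1, takes the first and rate-limiting step, Pts encodes the enzyme that forms 6-pyruvoyl-tetrahydropterin, and Spr encodes sepiapterin reductase, which completes the synthesis. BH4 is then used up by the aromatic amino acid hydroxylases, the nitric oxide synthases and alkylglycerol monooxygenase. Pcbd1 and Qdpr encode the dehydratase and the reductase that restore it. Gchfr encodes a protein that binds GTP cyclohydrolase 1 and slows it when BH4 is plentiful, or stimulates it when phenylalanine is high. In the liver the pathway is best known for its part in the breakdown of phenylalanine.

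The libraries held 1400887 to 4773750 counts on genes, and levels are given as CPM, the count scaled to the size of its library. Where no read was found, a level of up to 0.591 to 2.41 CPM (3 counts) is compatible with it, depending on the library and for counting error only. The libraries were primed at the 3′ end of polyadenylated RNA, so counts do not grow with the length of a gene, and the levels of different genes are set side by side as CPM without dividing by length. The filter of edgeR against low counts left 10876 genes, among them 5 members, and Pts was below it. All markers of hepatocytes that were listed were tested (10 of 10). Many genes were at 0 in 1 or more libraries where the mean of the others predicted many reads. At least 20 counts were to be expected from the mean of the other libraries, yet none was found, for 136 to 202 genes in the CTR libraries, 707 in VPA replicate 1, 635 in VPA replicate 2, 286 in VPA replicate 3 and 270 in VPA replicate 4. Such a zero in at least 1 library was found for 1787 of the genes tested (16.4%), and a gene at 0 in several libraries counts in each. Gchfr and Pcbd1 have such zeros, as do several of the genes named further on, and their part in the results was not tested.

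Spr (ENSMUSG00000033735) spans bases 85130176 to 85137766 of chromosome 6 (GRCm38, − strand), and no annotated gene overlaps it. Its count was 357, 716 and 269 in CTR replicates 1, 2 and 3, and 81, 176, 55 and 83 in VPA replicates 1 to 4. On the CPM scale this was 140.7, 141.1 and 147.5 in the CTR libraries and 52.9, 54.1, 44.2 and 62.7 in the VPA libraries. Every VPA library lay below every CTR library. The same was true of 7.41% of all genes tested, while 4.44% had every VPA library above every CTR library, and nothing is read from this for Spr, which was picked for it. The mean level was 143 ± 3.80 CPM (SD, n = 3) without VPA and 53.5 ± 7.58 CPM (SD, n = 4) with VPA, a ratio of 2.68. On the log2 scale the difference was −1.42 (standard error, SE, 0.161). The coefficient of variation was 2.66% over the CTR libraries and 14.2% over the VPA libraries, and the counts alone carried an error of 3.74% to 6.10% and 7.54% to 13.5% per library. A small spread within groups is part of what Spr was chosen for. An unprocessed pseudogene, Spr-ps1, lies outside the gene on the same chromosome (85152621 to 85156223, + strand) and had at most 17 counts in any library.

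**Figure D1:**
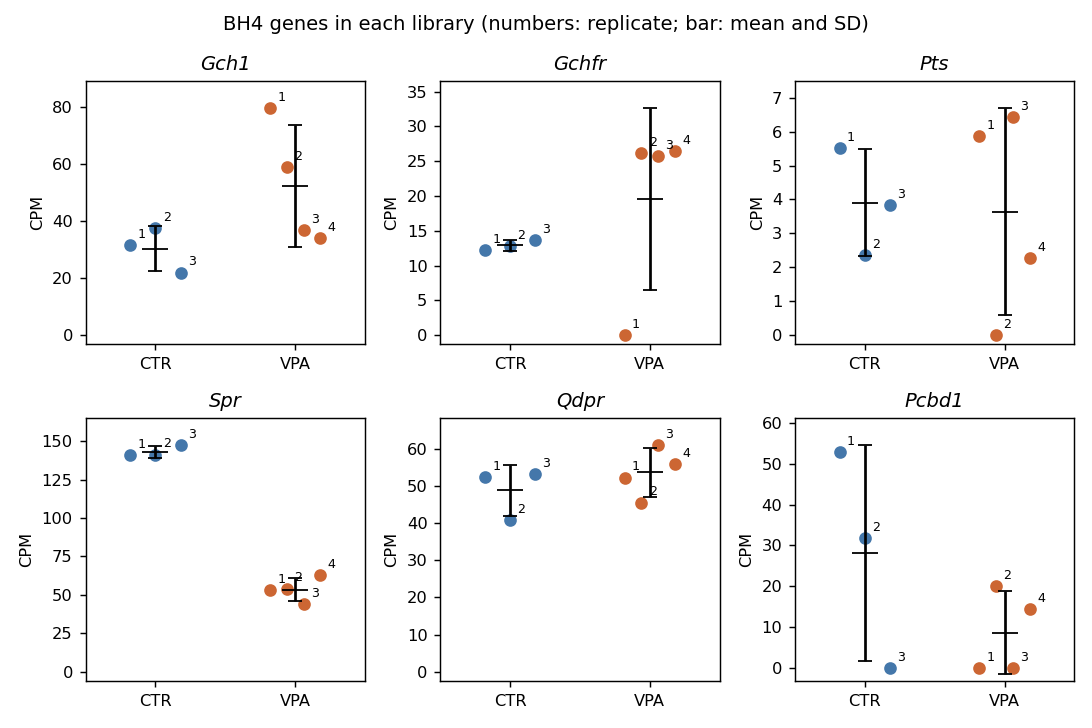
Level of the 6 BH4 genes in CPM (vertical axis, linear, a separate scale for each gene) in the CTR and VPA libraries. Points are libraries numbered by replicate, and the black bar is the group mean with its SD (n = 3 and n = 4). The CTR libraries have 140.7 to 147.5 CPM of Spr and the VPA libraries 44.2 to 62.7 CPM, while the groups overlap for the other 5 genes, and Gchfr and Pcbd1 have libraries at 0.

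Gch1 (ENSMUSG00000037580, chromosome 14, 47153895 to 47189413, − strand) had 31.5, 37.6 and 21.9 CPM in CTR replicates 1 to 3. In VPA replicates 1 to 4 it had 79.7, 59.0, 36.9 and 34.0 CPM. VPA replicates 1 and 2 exceeded all CTR libraries, and VPA replicates 3 and 4 fell inside the CTR range. The mean was 30.4 ± 7.92 CPM (SD, n = 3) against 52.4 ± 21.3 CPM (SD, n = 4), and the log2 fold change of 0.78 (SE 0.368) was within the spread between libraries in edgeR's quasi-likelihood test (Benjamini-Hochberg adjusted p = 0.646). Its 95% interval ran from −0.07 to 1.64. Without VPA replicate 1 the log2 fold change was 0.52. Gm18811, which overlaps Gch1 on the same strand, had at most 8 counts in any library.

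Gchfr, the feedback regulator of Gch1 (ENSMUSG00000046814, chromosome 2, 119167773 to 119172390, + strand), was at 12.2, 12.8 and 13.7 CPM in CTR replicates 1 to 3. It was at 0 in VPA replicate 1 and at 26.1, 25.7 and 26.4 CPM in VPA replicates 2, 3 and 4. Thus 3 of the 4 VPA libraries exceeded the CTR libraries and were close to each other, and the fourth was below them all. In VPA replicate 1 the mean of the other 6 libraries would give 29.9 counts, and none was found. Over all libraries the mean was 12.9 ± 0.750 CPM (SD, n = 3) against 19.6 ± 13.0 CPM (SD, n = 4), with a log2 fold change of 0.60 (SE 1.070, adjusted p = 0.953 from edgeR). Without VPA replicate 1 it was 1.01, with an adjusted p of 0.482 from edgeR. In limma-voom with all libraries the log2 fold change was 0.06. The value thus depends on the tool and on VPA replicate 1, and Gchfr passed the threshold neither with nor without this library. The ratio of Gch1 to Gchfr within each library was not tested, since Gchfr had no count in 1 of them.

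Pts (ENSMUSG00000032067, chromosome 9, 50521617 to 50528724, − strand), the enzyme between Gch1 and Spr, was close to the limit of detection. It had 14, 12 and 7 counts in the CTR libraries and 9, 0, 8 and 3 in the VPA libraries. This was 3.91 ± 1.58 CPM (SD, n = 3) and 3.64 ± 3.05 CPM (SD, n = 4), and the groups overlapped. With the genes of low count included, its adjusted p was 0.984 from edgeR, and a difference was not detectable at this depth.

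Qdpr (ENSMUSG00000015806, chromosome 5, 45434021 to 45450236, − strand), which reduces quinonoid dihydrobiopterin, had 52.4, 40.8 and 53.2 CPM in CTR replicates 1 to 3. It had 52.2, 45.5, 61.0 and 55.9 CPM in VPA replicates 1 to 4. The groups overlapped over most of their range. Means were 48.8 ± 6.93 CPM (SD, n = 3) and 53.7 ± 6.52 CPM (SD, n = 4), with 0.14 as the log2 fold change (SE 0.200, adjusted p = 0.945 from edgeR). Its 95% interval, from −0.33 to 0.60, was the narrowest of the 4 members tested besides Spr, and the log2 fold change was 0.01 without CTR replicate 2, 0.07 without VPA replicate 3 and 0.22 without VPA replicate 2.

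Pcbd1 (ENSMUSG00000020098, chromosome 10, 61089331 to 61094324, + strand) encodes the dehydratase that acts before Qdpr in recycling. It had 134, 161 and 0 counts in CTR replicates 1 to 3, and 0, 65, 0 and 19 counts in VPA replicates 1 to 4. In CPM these were 52.8, 31.7 and 0 against 0, 19.98, 0 and 14.3. The highest values were both CTR libraries, but each group held libraries at 0 where between 24.7 and 36.1 counts were to be expected from the mean of the others. The log2 fold change was −1.68 (SE 1.690, 95% interval −5.62 to 2.27), with an unadjusted p of 0.352 and an adjusted p of 0.908 from edgeR. Leaving out CTR replicate 1 brought it to −0.88, and leaving out VPA replicate 2 to −2.56.

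Of the 4 members tested besides Spr, 3 had a log2 fold change above 0 and 1 below 0, against 45.8% and 54.2% of all genes tested. In edgeR's test 0 of the 4 had an adjusted p under 0.05, against 0.00919% of all genes tested. At an unadjusted p under 0.05 the number was 0 of 4, against 8.28% of all genes (3.65% higher and 4.62% lower). DESeq2 gave 0 of 5 members besides Spr at an adjusted p under 0.05, against 0.999% of the genes it tested, and limma-voom gave 0 of 4. Neither tool had a member besides Spr at an unadjusted p under 0.05. Over the alternative fits, the unadjusted p was under 0.05 for Gch1 in 4 of 15 and for Gchfr in 2 of 14, those without VPA replicate 1 and with a block on slice culture number. The median log2 fold change over all genes tested was −0.06.

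The order of the levels differed between the groups, as a description that includes Spr. In the CTR libraries Spr stood first at 143 CPM, followed by Qdpr at 48.8, Gch1 at 30.4, Pcbd1 at 28.2, Gchfr at 12.9 and Pts at 3.91 CPM. Spr lay above Qdpr, Qdpr above Gch1, and Gchfr above Pts in every CTR library, while the range of Pcbd1 took in those of Gch1, Gchfr and Pts. In the VPA libraries Qdpr at 53.7, Spr at 53.5 and Gch1 at 52.4 CPM could not be ordered, and Gchfr at 19.6, Pcbd1 at 8.58 and Pts at 3.64 CPM followed with ranges that overlapped down to 0. The 6 genes summed to 295, 266 and 240 CPM in CTR replicates 1 to 3 and to 191, 205, 174 and 196 CPM in VPA replicates 1 to 4. Spr made up 47.7%, 53.0% and 61.4% of the sum without VPA, and 27.7%, 26.4%, 25.3% and 32.0% of it with VPA. Without Spr the sum was 92.6 to 154 CPM in the CTR libraries and 130 to 151 CPM in the VPA libraries, which lay within the CTR range.

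**Figure D2:**
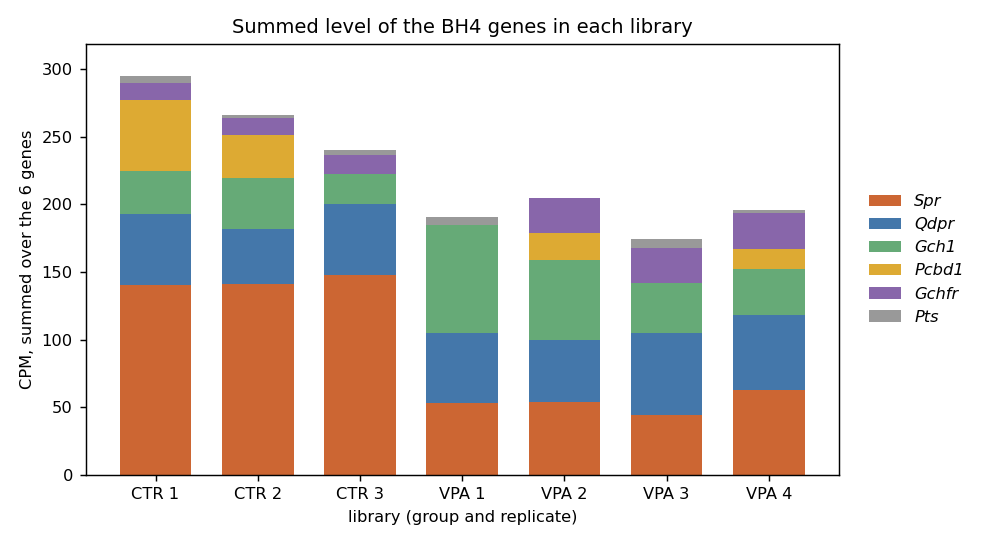
Summed level of the 6 BH4 genes in CPM (vertical axis, linear, from 0) in each library, with 1 colour per gene. The Spr segment measures 140.7 to 147.5 CPM in CTR libraries and 44.2 to 62.7 CPM in VPA libraries, and Pcbd1 and Gchfr are absent from the libraries where their count was 0.

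Of the enzymes that use BH4, 7 were considered here, and these were measured at low levels or not at all. Among them, 1 passed the filter of edgeR, and 0 had an unadjusted p under 0.05 in edgeR, DESeq2 or limma-voom. This was Nos3, the nitric oxide synthase of endothelium, with 17, 61 and 0 counts in the CTR libraries and 0, 30, 0 and 0 in the VPA libraries (log2 fold change −1.31, SE 1.865, adjusted p = 0.945 from edgeR), and it overlaps Atg9b on the other strand. Whether the counting used strand is not given in the sources used here, which also touches Gstz1, Hpd, Impdh2 and Cxcl10. Further genes named here overlap an annotated gene on the other strand, among them Gch1, Qdpr, Akr1b3, Pcbd2, Nos1 and Irf1. Those of Gch1 and Qdpr, Gm49134 and Gm42413, had no count in any library. For Nos3, libraries at 0 and libraries with counts were found in both groups, and the log2 fold change was −0.46 when CTR replicate 2 was left out.

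Th, Tph1 and Nos2 had no count in any of the 7 libraries. They encode the hydroxylases of tyrosine and tryptophan and the inducible nitric oxide synthase. Tph2 had 3 counts in 1 CTR library. Nos1, the neuronal nitric oxide synthase, had 12, 26 and 6 counts in the CTR libraries and 2, 4, 3 and 4 in the VPA libraries, too few to pass the filter, with an adjusted p of 0.715 from edgeR when genes of low count were included. Agmo, which splits ether lipids with BH4, had between 3 and 14 counts in every library.

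The reductases that can stand in for sepiapterin reductase, and Pcbd2, the paralog of Pcbd1, were better covered, with 4 of 4 genes tested. The adjusted p was under 0.05 for 0 of them in edgeR, DESeq2 and limma-voom, and the unadjusted p was under 0.05 for 1 in edgeR and limma-voom and 0 in DESeq2, where edgeR gave 8.28% over all genes. Cbr1, a carbonyl reductase, had 56.7, 87.7 and 89.9 CPM in CTR replicates 1 to 3 and 137, 117, 86.7 and 125 CPM in VPA replicates 1 to 4. Only VPA replicate 3 fell inside the CTR range, and the other 3 VPA libraries exceeded it. Its log2 fold change of 0.57 (SE 0.234) missed the threshold (adjusted p = 0.575 from edgeR), and was 0.38 without CTR replicate 1.

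Akr1b3, aldose reductase, was at 14.1 ± 1.13 CPM (SD, n = 3) without VPA and at 14.1 ± 2.97 CPM (SD, n = 4) with it. The 95% interval of its log2 fold change ran from −0.93 to 0.93. Pcbd2 was at 18.9 ± 4.29 CPM (SD, n = 3) and 26.1 ± 8.03 CPM (SD, n = 4), a log2 fold change of 0.47 (SE 0.367, adjusted p = 0.860 from edgeR). Cbr3 had 0 to 25 counts and a log2 fold change of −0.64 (SE 1.839), which ran from −1.36 without VPA replicate 1 to 0.52 without CTR replicate 3.

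**Figure D3:**
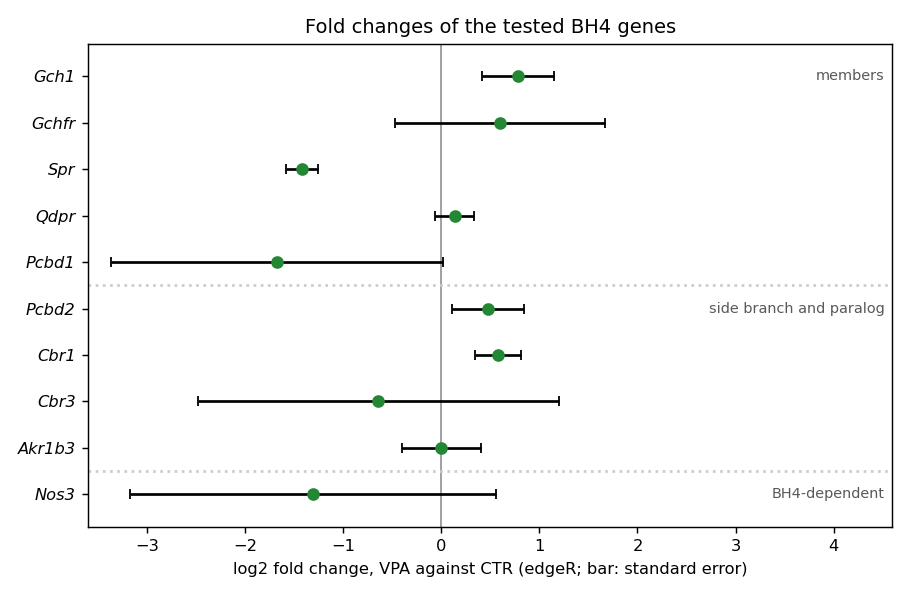
Log2 fold change with VPA against CTR from edgeR (horizontal axis) for 10 BH4 genes that passed the filter on low counts, 5 members, 4 side branch or paralog genes and 1 enzyme that uses BH4. Points are estimates and bars the standard error over 7 libraries. Spr at −1.42 has the shortest bar (0.161), Gchfr, Pcbd1, Cbr3 and Nos3 have bars of more than 1 unit to each side, and Spr was chosen for its low value.

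Later steps of phenylalanine and tyrosine breakdown were tested for 3 of 5 genes, 2 higher and 1 lower in their means, with a median log2 fold change of 0.06. Hpd, which acts early in tyrosine breakdown, had 16.0 ± 7.93 CPM (SD, n = 3) without VPA and 16.8 ± 16.6 CPM (SD, n = 4) with VPA, where VPA replicate 4 was at 0. Its log2 fold change of 0.06 (SE 1.124) turned to −0.30 when CTR replicate 3 was left out, to −0.78 when VPA replicate 1 was, and to −0.99 in limma-voom. Fah and Gstz1, which act at the end of that route, had log2 fold changes of 0.26 (SE 0.459) and −0.35 (SE 0.376). Leaving out VPA replicate 1 brought them to −0.14 and −0.14, and leaving out CTR replicate 2 to 0.11 and −0.54. Gstz1 was also at −0.14 when CTR replicate 3 was left out. No gene of this list had an unadjusted p under 0.05 in edgeR, DESeq2 or limma-voom.

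The enzymes that supply GTP, the starting material of BH4, were tested for 8 of 8 genes, 4 higher and 4 lower, with a median log2 fold change of 0.03. Nme2, a nucleoside diphosphate kinase, was at 364 ± 85.0 CPM (SD, n = 3) without VPA and 264 ± 31.8 CPM (SD, n = 4) with VPA (log2 fold change −0.47, SE 0.192, adjusted p = 0.575 from edgeR), and overlaps Gm20390 on its strand. Impdh1 and Impdh2, which commit inosine monophosphate to guanine nucleotides, had log2 fold changes of 0.60 (SE 1.055) and −0.51 (SE 0.412). Impdh1 ran from 0.0070 without CTR replicate 3 to 1.06 without CTR replicate 2, and Impdh2 from −0.81 without VPA replicate 2 to −0.31 without CTR replicate 2. Hprt, which salvages guanine, had 0.50 (SE 0.283), and 0.28 when VPA replicate 1 was left out. Nme2 had −0.31 when CTR replicate 2 was left out. Impdh1 was at 0 in CTR replicate 3.

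Cytokines are known to induce Gch1 together with Nos2. Of 9 cytokine response genes, 3 were tested, 2 higher and 1 lower, with a median log2 fold change of 0.04. Cxcl10, a chemokine induced by interferon, was at 26.8, 51.2 and 34.5 CPM in CTR replicates 1 to 3 and at 272, 180, 36.9 and 239 CPM in VPA replicates 1 to 4. VPA replicate 3 fell inside the CTR range, and the others exceeded it. This was 2.27 on the log2 scale (SE 0.631, adjusted p = 0.393 from edgeR), and DESeq2 gave an adjusted p of 0.0191. Irf1 and Nfkbia, an interferon regulatory factor and an inhibitor of NF-κB, had log2 fold changes of −0.46 (SE 0.241) and 0.04 (SE 0.156). The VPA libraries of Irf1, at 23.4 to 35.9 CPM, were all below its CTR libraries, at 36.2 to 44.9 CPM, as for 7.41% of all genes tested. Below the filter, Il6 had 5, 8 and 4 counts in the CTR libraries, Il1b had 9, 0 and 8, and Tnf had 4, 0 and 0, with no count in a VPA library. Cxcl9 had 4, 21 and 0 counts against 0, 0, 12 and 5, Socs1 had 0, 7 and 0 against 0, 0, 4 and 0, and Icam1 had 71, 6 and 4 against 10, 0, 0 and 8. With genes of low count included, the adjusted p of these 6 genes was 0.680 or more from edgeR.

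The folate enzymes share pterin chemistry with BH4, and 8 of 9 were tested, 2 higher and 6 lower, with a median of −0.16 on the log2 scale. Ftcd, a folate enzyme of histidine breakdown, had 75.3 ± 53.6 CPM (SD, n = 3) without VPA and 33.2 ± 16.2 CPM (SD, n = 4) with VPA, a log2 fold change of −1.19 (SE 0.581, adjusted p = 0.667 from edgeR) that was −0.51 without CTR replicate 3. Mthfd1 had −1.48 (SE 2.020), with 4 libraries at 0, and −0.49 when CTR replicate 1 was left out, which also brought Aldh1l1 to 0.24. With all libraries, Aldh1l1 and Gart had 0.47 (SE 0.460) and 0.05 (SE 0.394), where Gart turned to −0.22 when CTR replicate 2 was left out and to −0.24 when VPA replicate 2 was. Over these lists together, without the 6 members, 27 of 42 genes were tested in edgeR. An adjusted p under 0.05 was found for 0 of them, and an unadjusted p under 0.05 for 2 higher and 1 lower, where 3.65% and 4.62% of all genes tested were higher and lower at that threshold. DESeq2 tested 39 of the 42 and gave 1 at an adjusted p under 0.05, Cxcl10, against 0.999% of all genes it tested. The number in limma-voom was 0 of 27.

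Markers of the cell types in the slice were summed in each library. The 10 hepatocyte markers summed to 7336 to 19030 CPM in the CTR libraries and 5443 to 16335 CPM in the VPA libraries. In edgeR 8 of 10 were higher and 2 lower in their means, against 45.8% and 54.2% of all genes tested, and 7 were higher in DESeq2 and limma-voom. Their median log2 fold change of 0.28 ran from −0.10 to 0.63 with each library left out. For 1 of the 10, Cyp3a11, every VPA library (16.1 to 42.4 CPM) was above every CTR library (10.4 to 16.0 CPM), as for 4.44% of all genes tested. The 9 markers of stellate cells and myofibroblasts summed to 1813 to 3991 CPM and 1291 to 2766 CPM, with 8 of the 9 lower in their means and a median log2 fold change of −1.04 (0 at an adjusted p under 0.05 and 3 at an unadjusted p under 0.05 in edgeR, and 2 at an adjusted p under 0.05 in DESeq2). Over all genes tested, 54.2% had a lower mean, 4.62% were lower with an unadjusted p under 0.05 (edgeR), and 0.999% were called by DESeq2. For 3 of the 9, the collagen genes Col1a1, Col1a2 and Col3a1, every VPA library was below every CTR library, as for 7.41% of all genes tested, with Col1a1 at 515 to 949 CPM in CTR and 172 to 261 CPM in VPA libraries. Dcn, decorin, was the marker with a higher mean (410 to 1141 CPM and 601 to 1797 CPM). The ratio of the VPA to the CTR mean ran from 0.317 for Col1a1 to 1.42 for Dcn. The 8 endothelial markers summed to 253 to 342 CPM and 115 to 293 CPM, with 6 of the 7 tested lower in their means. For the 7 tested, the ratio of the VPA to the CTR mean ran from 0.190 for Cdh5 to 1.14 for Lyve1. Clec4g, below the filter, had no count in the CTR libraries and 0, 25, 0 and 3 counts in VPA replicates 1 to 4. Cdh5 was the 1 endothelial marker without overlap between the groups, and it was at 0 in VPA replicates 1 and 2, where 70.9 and 150.5 counts were to be expected from the other libraries. The macrophage markers summed to 305 to 434 CPM and 332 to 571 CPM, with Adgre1 and Marco at 0 in every library. The cholangiocyte markers summed to 268 to 614 CPM and 258 to 741 CPM. Over whole lists, the sums of CTR and VPA libraries overlapped for all 5. For the stellate markers the overlap came from Dcn, the marker with a higher mean, and without it every VPA sum was below every CTR sum. That choice was made after the values were seen and favours this outcome. The sum also holds the 3 collagen genes above, so nothing further is read from it. The part of these cell types in the level of Spr was not tested.

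The genes whose log2 CPM followed that of Spr most closely over the 7 libraries were sought among the 8694 other genes with a mean of at least 10 CPM. They were Bptf (Pearson r = 0.993), Spag7 (0.981), Gprc5a (0.981), Tbcb (0.981) and Paox (0.979). These r describe 2 groups of libraries that lie apart and were not tested. With 1 library left out, Bptf ranked between 1 and 12, and Spag7, Gprc5a, Tbcb and Paox between 6 and 25. Bptf, the largest subunit of a nucleosome remodelling complex, had 285 ± 3.24 CPM (SD, n = 3) without VPA and 204 ± 6.98 CPM (SD, n = 4) with VPA. Its values ran from 281 to 288 CPM and from 193 to 209 CPM.

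The other 4 of these genes had no count in any VPA library. Tbcb, a cofactor of tubulin folding, was at 119, 70.6 and 115 CPM in CTR replicates 1 to 3. With VPA it was at least 42.1-fold lower, taking the highest level that 3 counts in a VPA library would give (2.41 CPM). The bound was 12.0-fold for Spag7, 10.9-fold for Gprc5a and 10.5-fold for Paox, an oxidase of acetylated polyamines. The genes were found by their likeness to Spr, and their bounds are a description of that choice. They cover counting error only, and whether the zeros, which many genes had in 1 or more libraries, reflect the level of these genes was not tested. Of the 8695 genes with that mean level, 9 were at 0 in all VPA libraries and above 0 in all CTR libraries.

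**Figure D4:**
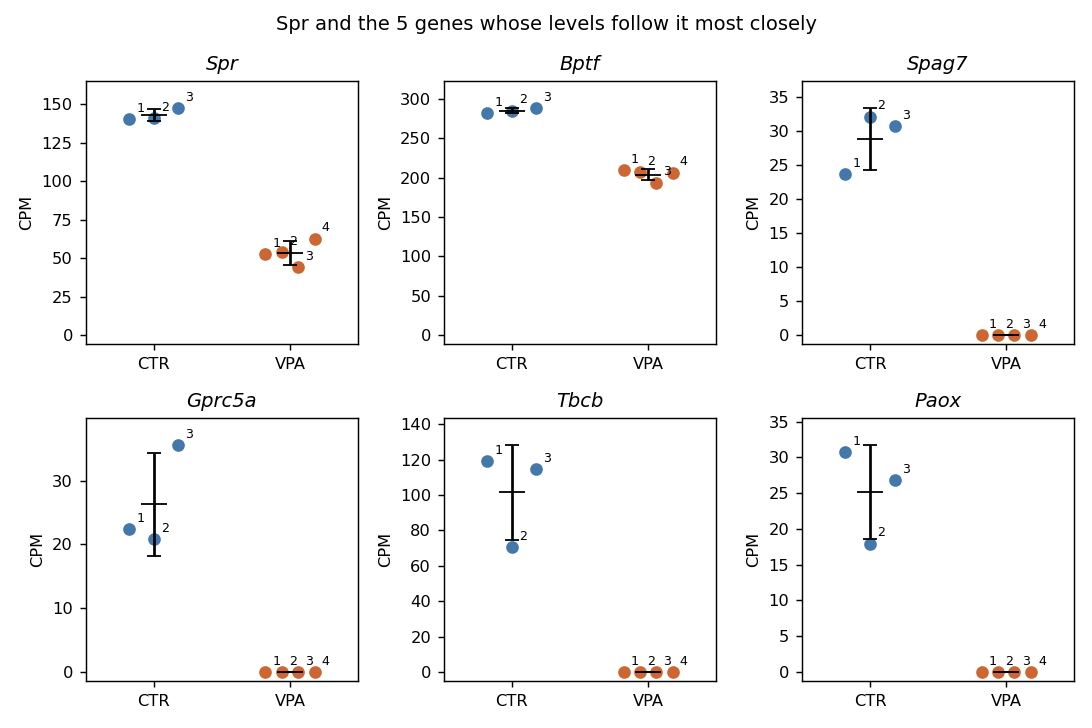
Level in CPM (vertical axis, linear, a separate scale for each gene) of Spr and of the 5 genes with the highest Pearson r with it over 7 libraries. Points are libraries numbered by replicate and the bar is the mean with SD. Bptf has a mean of 285 CPM without VPA and 204 CPM with VPA, and Spag7, Gprc5a, Tbcb and Paox are at 0 in all 4 VPA libraries.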

How the data were processed

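The authors prepared 3′ end RNA-seq libraries, and used STAR for alignment to the mouse genome (GRCm38, mm10 in the submitters' processing notes) after trimming, and StringTie for assembly. They deposited raw read counts per Ensembl gene as whole numbers. The counting program, its strand setting and its handling of multi-mapped reads are not given in the sources used here.

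From the counts, edgeR 4.0.16 in R 4.3.3 (TMM, filterByExpr, robust quasi-likelihood test, condition only) tested 10876 genes, with Benjamini-Hochberg adjustment over all of them and a threshold of 0.05. CPM uses TMM library sizes, log2 CPM has a prior count of 2, and the standard error is the log2 fold change divided by the root of F. DESeq2 1.42.0, limma-voom (limma 3.58.1), other filters and scalings, replicate blocks and leaving out each library were alternatives. The code was tested on simulated data. Libraries of a group differed by more than sampling noise (chi-square per degree of freedom 13.0 to 24.3) and counted as 1 replicate each.

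Members and lists were chosen with earlier results of these data known. Named genes are the members, all BH4-linked genes, the 2 largest rises and falls of each other list with at least 5 CPM, and the 5 most like Spr. The marker lists are given mainly as sums in place of the genes this rule would name, and the single markers named, and the cytokine response genes below the filter, were added after their values were seen. Some genes of these lists are not reported here and were left out of the counts of each list. The qPCR, protein and human slice data were not analysed here.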

Additional observations from a re-analysis of the deposited data

Results flagged for a closer look

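In the 4 VPA libraries, 1 library lay far from the other 3 by Dixon's test for 5 of 47 measures examined, where chance gives about 1 in 20 (a share of 0.05). Gchfr was at 0 CPM in VPA replicate 1, with the others between 25.7 and 26.4 CPM. Nos3 was at 9.22 CPM in VPA replicate 2 and Mthfd1 at 11.2 CPM in VPA replicate 3, with the other 3 libraries at 0, so that for these 2 measures the gap is the whole range whatever the value, and the chance share does not apply. Akr1b3 was at 18.5 CPM in VPA replicate 3. VPA replicate 2 held 3102450 counts on genes, above the 1400887 to 1515954 of the others. The causes were not tested.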

How the results depend on the processing

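Under 15 alternatives, 24 named genes gave 351 log2 fold changes, of which 326 kept their direction. Spr stayed between −1.51 and −1.34. No member besides Spr had an adjusted p under 0.05 under any alternative that could be run, with a lowest value of 0.324 (Gch1, genes with at least 10 counts in every library). Gchfr and Pcbd1 did not pass that filter. Of the other genes among the 24, Cxcl10 passed with DESeq2 (2.27, adjusted p = 0.0191). The cell type markers were not among the 24, and of these Col1a1 (adjusted p = 4.43e-07) and Col1a2 (adjusted p = 0.000544) also passed with DESeq2.

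The number of genes called, 1 in edgeR, was 154 with DESeq2, 10 without a filter, 36 with at least 10 counts in every library, 900 at an unadjusted p under 0.05, and 0 to 2 with each library left out. The cause was not tested. With the replicate block it was 0 by slice culture number and 0 by replicate number. Correlations of the deviations from the group means between same-numbered libraries were 0.107, 0.0256 and 0.0546 for cultures 71, 72 and 74, and −0.05, 0.05 and 0.11 for replicates 1 to 3, so the fit without the block was kept. These correlations do not show that the libraries come from different livers, and the labels do not say whether a culture number marks 1 liver. With the block by slice culture number, Gch1 had 0.50, Gchfr 1.01, Qdpr 0.15 and Pcbd1 −1.24, with adjusted p values from edgeR of 0.608 or more. Each block leaves at least 1 VPA library without a partner.

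Directions turned under these settings. The replicate block by replicate number gave −0.33 for Gchfr and 0.046 for Akr1b3. The replicate block by slice culture number gave 0.0090 for Akr1b3, −0.21 for Fah, −1.29 for Hpd and −0.030 for Gart. RLE normalization gave 0.010 and the filter on every library 0.0057 for Akr1b3, and no filter gave −0.056 for Nfkbia, −0.071 for Hpd and −0.032 for Gart. Limma-voom gave −0.99 for Hpd. Other values kept their direction but moved, such as Pcbd1 to −3.20 and Mthfd1 to −3.81 with the block by replicate number. Cbr3 moved to −2.55 with the block by slice culture number, and Nos3 to −2.61 in limma-voom. After the data were seen, the sum of stellate markers was also formed without Dcn, the 1 marker with a higher mean, which moved the ratio of the VPA to the CTR mean from 0.666 to 0.369. With each library left out, Gchfr ran from 0.42 to 1.01, Cbr3 from −1.36 to 0.52, Akr1b3 from −0.16 to 0.057, Fah from −0.14 to 0.49, Nfkbia from −0.046 to 0.10, Hpd from −0.78 to 0.46 and Gart from −0.24 to 0.20. The ratio of Gch1 to Gchfr and its alternatives were not run, because Gchfr had no count in 1 library. Pts, at 0 to 14 counts per library, was below the filter at this depth.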
